A study of Saccharomyces cerevisiae with 66 samples.

Results

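Chromosome IV, the longest chromosome of budding yeast, holds none of the viewpoints of this series, so that every contact of its nucleosome-depleted regions (NDRs) is in trans, and these NDRs are described here along both arms. All NDRs whose identifier places them on chromosome IV were taken from each of the 21 comparison tables, 600 of 4828 in all, and placed in 16 bins of 100 kb counted from the left end. Of these, 190 lie on the left arm and 410 on the right arm of the 1531933 bp chromosome, whose centromere spans positions 449711 to 449821. Every table compares 2 libraries of a targeted strain with 2 libraries of a control strain. All strains have a w303 background with ade2-1, can1-100, a mutant leu2, the allele his3-11,15, and trp1-1 with ura3-1. All of them also carry, at ADH1 and marked with LEU2, a fusion of LacI to the GpC methyltransferase M.CviPI that LexA-ER-VP16 switches on when 2 nM β-estradiol is added. Targeted strains have in addition a HIS3-marked LacO array at the viewpoint (VP) gene, and control strains have none. The tables of main interest have only 4, 8 or 16 LacO copies at YBP2 and 1 h of induction. They were set against YBP2 with 256 copies at 1 h and 2 h and against 16 further tables with 256 copies at 2 h. Of these, 10 have their VP at PUS2, PCL10, OLE1, CDC43, LSM4, SHC1, LHS1, VHR1, MNR2 or MBR1, 2 have it at TRP2 without or with methionine, and 4 have the MAT VP (array at TAF2) in MATa and MATα cells kept in glucose or moved to galactose, whose targeted and control strains both carry GAL10pr-HO::URA3. Galactose turned on HO to switch the mating type, and the study describes the cells after switching as a mixture of MATa and MATα. For the galactose tables, MATa and MATα therefore name the mating type before switching. By the labels, 1 control condition serves all 4 tables at 1 h and another serves YBP2 at 2 h and those 10 VPs, so values of those tables are not independent. Each condition is labelled with 1 strain name, so the 2 libraries of a condition share a strain. The study's strain list gives the mating type as MATa for the strains of all tables except those with the MAT VP, which cover both mating types.

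In MTAC, the fusion protein binds the array and methylates cytosines in GC dinucleotides of DNA that comes close to the VP. Methylated DNA is then precipitated with an antibody against 5-methylcytosine and sequenced (MeDIP-seq). NDRs are the short stretches without nucleosomes, mostly promoters, where the enzyme can reach the DNA. A contact between chromosomes would appear as more reads over an NDR in the targeted strain than in its control, where the unbound fusion protein methylates accessible DNA everywhere. In yeast nuclei the centromeres are held together near the spindle pole body and the arms extend away from it, so the position on an arm is one of the main features of a locus. Chromosome IV also carries 8 annotated Ty retrotransposons of the kinds Ty1 and Ty2, mobile elements whose copies within a kind can be nearly identical.

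All values come from the authors' deposited DESeq2 tables, in which base mean is the mean of the normalized read counts of an NDR over the 4 libraries of a table, and the log2 fold change compares targeted with control libraries. Each comes with its standard error (SE, in log2 units). Since the tables used here give no value of a single library, no direct measure of the spread between the 2 libraries can be given. The median base mean on chromosome IV was 18.4 with 4 copies, 17.7 with 8 copies and 19.6 with 16 copies, and it was 27.7 with 256 copies at 1 h and between 16.9 and 52.5 in the 17 tables at 2 h. The median SE was 0.30, 0.45 and 0.32 with 4, 8 and 16 copies, 0.41 with 256 copies at 1 h and 0.23 to 0.35 at 2 h. At about 18 reads an NDR is a shallow measurement, and an SE of 0.45 can leave even log2 fold changes of about 1 beyond detection with 8 copies. Chromosome IV took 9.74% to 11.4% of the summed base mean of each table. Its NDRs are 51 to 637 bp long, with a median of 179.5 bp and 6 GC sites. A GC is found in 98.8% of them, 7 have none and the richest has 42. Base mean followed the number of GC sites, with a Spearman correlation of 0.65 across the 600 NDRs, which share libraries and base composition and are not replicates.

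The sequences of the NDRs on which the results turn are shown first, read from the R64 (sacCer3) reference on its plus strand, 5′ to 3′, with each GC, the site of M.CviPI on either strand, in capitals. The opening set holds 5 of the NDRs called higher with 4 copies, all of which lie within one stretch of the right arm.
UPC2, chrIV:889334-889490: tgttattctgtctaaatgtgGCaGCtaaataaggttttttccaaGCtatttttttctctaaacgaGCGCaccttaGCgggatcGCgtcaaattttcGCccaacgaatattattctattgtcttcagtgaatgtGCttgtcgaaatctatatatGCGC
YDR215C/ADR1, chrIV:893920-894165: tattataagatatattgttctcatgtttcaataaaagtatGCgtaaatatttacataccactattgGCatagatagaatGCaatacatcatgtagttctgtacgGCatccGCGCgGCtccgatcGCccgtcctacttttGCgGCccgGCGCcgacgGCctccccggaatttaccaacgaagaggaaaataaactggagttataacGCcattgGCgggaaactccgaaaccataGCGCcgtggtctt
AMD2/SUP2, chrIV:946545-946677: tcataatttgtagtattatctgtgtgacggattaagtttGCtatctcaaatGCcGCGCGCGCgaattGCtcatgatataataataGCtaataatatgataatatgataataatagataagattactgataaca
YDR246W-A/VHS1, chrIV:955441-955609: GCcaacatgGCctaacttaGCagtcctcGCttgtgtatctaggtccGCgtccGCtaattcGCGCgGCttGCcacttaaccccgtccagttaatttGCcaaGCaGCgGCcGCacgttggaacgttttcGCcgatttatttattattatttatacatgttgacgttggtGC
RMD5, chrIV:967862-968054: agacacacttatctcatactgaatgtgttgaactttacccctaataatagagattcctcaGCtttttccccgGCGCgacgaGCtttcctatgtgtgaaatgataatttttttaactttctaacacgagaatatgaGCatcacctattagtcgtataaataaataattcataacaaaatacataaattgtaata
They hold 11, 17, 8, 17 and 5 GC sites, so that the RMD5 NDR, with the highest log2 fold change of the set, has the fewest sites. The next set holds the NDR called lower in more tables than any other, at VMA1, and 3 NDRs that were called higher from several VPs with 256 copies.
VMA1/YDL186W, chrIV:126456-126670: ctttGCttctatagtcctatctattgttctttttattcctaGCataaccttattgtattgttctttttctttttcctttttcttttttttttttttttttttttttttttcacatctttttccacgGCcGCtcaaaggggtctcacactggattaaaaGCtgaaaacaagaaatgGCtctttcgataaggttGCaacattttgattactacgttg
HEM12/BAP3, chrIV:551145-551425: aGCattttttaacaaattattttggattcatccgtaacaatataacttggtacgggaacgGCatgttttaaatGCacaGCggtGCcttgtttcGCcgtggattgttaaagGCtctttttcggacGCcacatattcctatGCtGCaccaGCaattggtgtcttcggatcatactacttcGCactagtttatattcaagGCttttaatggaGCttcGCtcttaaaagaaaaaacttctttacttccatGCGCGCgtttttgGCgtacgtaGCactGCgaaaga
HSP42, chrIV:806291-806418: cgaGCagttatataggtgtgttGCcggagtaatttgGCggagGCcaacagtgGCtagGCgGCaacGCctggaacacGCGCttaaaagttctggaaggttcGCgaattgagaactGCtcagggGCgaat
IRC4, chrIV:1517770-1517960: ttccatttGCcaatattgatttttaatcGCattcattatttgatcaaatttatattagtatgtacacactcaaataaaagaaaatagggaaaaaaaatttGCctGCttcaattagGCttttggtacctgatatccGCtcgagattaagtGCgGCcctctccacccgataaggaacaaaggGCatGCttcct
The VMA1 NDR holds a long run of T and 7 GC sites in 215 bp, and the HSP42 NDR holds 13 in 128 bp.

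An NDR was called higher at a log2 fold change above 0.7 and called lower under -0.7, in both cases with a Benjamini-Hochberg adjusted p under 0.05 in the Wald test of DESeq2 (two-sided, recomputed from the log2 fold change and SE over the full table). With 4 copies, 6 chromosome IV NDRs were called higher, where 0.166% of all NDRs of the table were, and 1 was called lower (0.0621%). With 8 copies the calls were 0 higher (0.0414%) and 2 lower (0.435%), and at an unadjusted p under 0.05 there were 6 higher and 20 lower. With 16 copies they were 1 higher (0.166%) and 0 lower (0.124%), with 17 higher and 10 lower at the unadjusted threshold. Unadjusted passes were not counted over all NDRs, so these counts cannot show anything particular to chromosome IV. The 4-copy table thus had most of its calls on chromosome IV, with 6 of 8 higher calls on a chromosome that holds 600 of 4828 NDRs. Its other 2 higher calls both lay within 30 kb of the VP on chromosome VII.

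With 256 copies at 1 h, 22 chromosome IV NDRs were called higher (4.54% of the table) and 16 lower (3.21%), a share of chromosome IV of 3.67% and 2.67%. With the trend of log2 fold change over base mean removed, 6 of its chromosome IV NDRs were called higher, and the share over all NDRs was not counted. At 2 h, YBP2 gave 6 higher (2.67%) and 2 lower (0.373%). The VPs with most higher calls on chromosome IV were LSM4 with 22 (4.23%), SHC1 with 19 (4.31%), LHS1 with 16 (3.94%) and CDC43 with 13 (2.71%), and their lower calls numbered 8 (1.43%), 5 (0.973%), 8 (0.787%) and 4 (0.311%). VHR1 gave 4 higher (1.47%) and 3 lower (0.352%), PUS2 1 (0.766%) and 0 (0.0207%), and PCL10 1 (0.601%) and 3 (0.186%). No chromosome IV NDR was called higher from OLE1 (0.311%), MBR1 (0.87%) or MNR2 (0.311%), and they had 1 (0.104%), 2 (0.29%) and 1 (0.0414%) called lower. The single lower call from OLE1 and that from MNR2 were both the NDR of VMA1. At an unadjusted p under 0.05 these 3 tables had 35, 30 and 8 chromosome IV NDRs higher than the control and 30, 20 and 16 lower. TRP2 without methionine gave 0 in either direction (0.249% higher, 0% lower), with 4 higher and 2 lower at the unadjusted threshold. TRP2 with methionine gave 0 higher (0.124%) and 1 lower (0.269%), with 2 higher and 27 lower at the unadjusted threshold. MATa cells in glucose gave 2 higher (0.726%), and MATa cells in galactose (0.124%), MATα cells in glucose (0.269%) and MATα cells in galactose (0.228%) gave 0 higher, with 0 lower in all 4 (0%). At the unadjusted threshold the 4 MAT tables had between 0 and 8 higher and between 2 and 7 lower on chromosome IV. Since passes at that threshold were not counted over all NDRs, neither their number nor their direction can be called particular to chromosome IV. In each of these 18 tables the share of chromosome IV called higher was at or under that of the whole table, whereas with 4 copies it was 1% against 0.166%. The whole-table shares include NDRs near the VP. With chromosome IV and the VP's chromosome left out, CDC43 had 2.09% called higher, against 2.17% on chromosome IV. The others of the 18 tables were still at or under that share, and with 4 copies it was 0%.

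The arms were flat in the few-copy tables except at one place. With 4 copies, the median log2 fold change of the bin from 900 to 1000 kb was 0.53 over 39 NDRs, 35 of them above 0, while the other 15 bins of chromosome IV had medians between -0.06 and 0.10. The 97 bins with at least 10 NDRs on chromosomes other than IV and VII ranged from -0.13 to 0.12 in the same table. The same bin had a median of -0.06 with 8 copies, 0.02 with 16 copies and -0.10 with 256 copies at 1 h, and -0.04 to 0.10 in the 17 tables at 2 h. With 8 copies the 16 bins ranged from -0.19 to 0.25, the highest being the last, short bin of 9 NDRs, and with 16 copies from -0.05 to 0.10. With 256 copies at 1 h they ranged from -0.23 to 0.13. Over all tables at 2 h, the 272 bin medians lay between -0.17 and 0.23, so the 4-copy bin at 900 kb exceeded every other bin median of chromosome IV in any table.

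**Figure D1:**
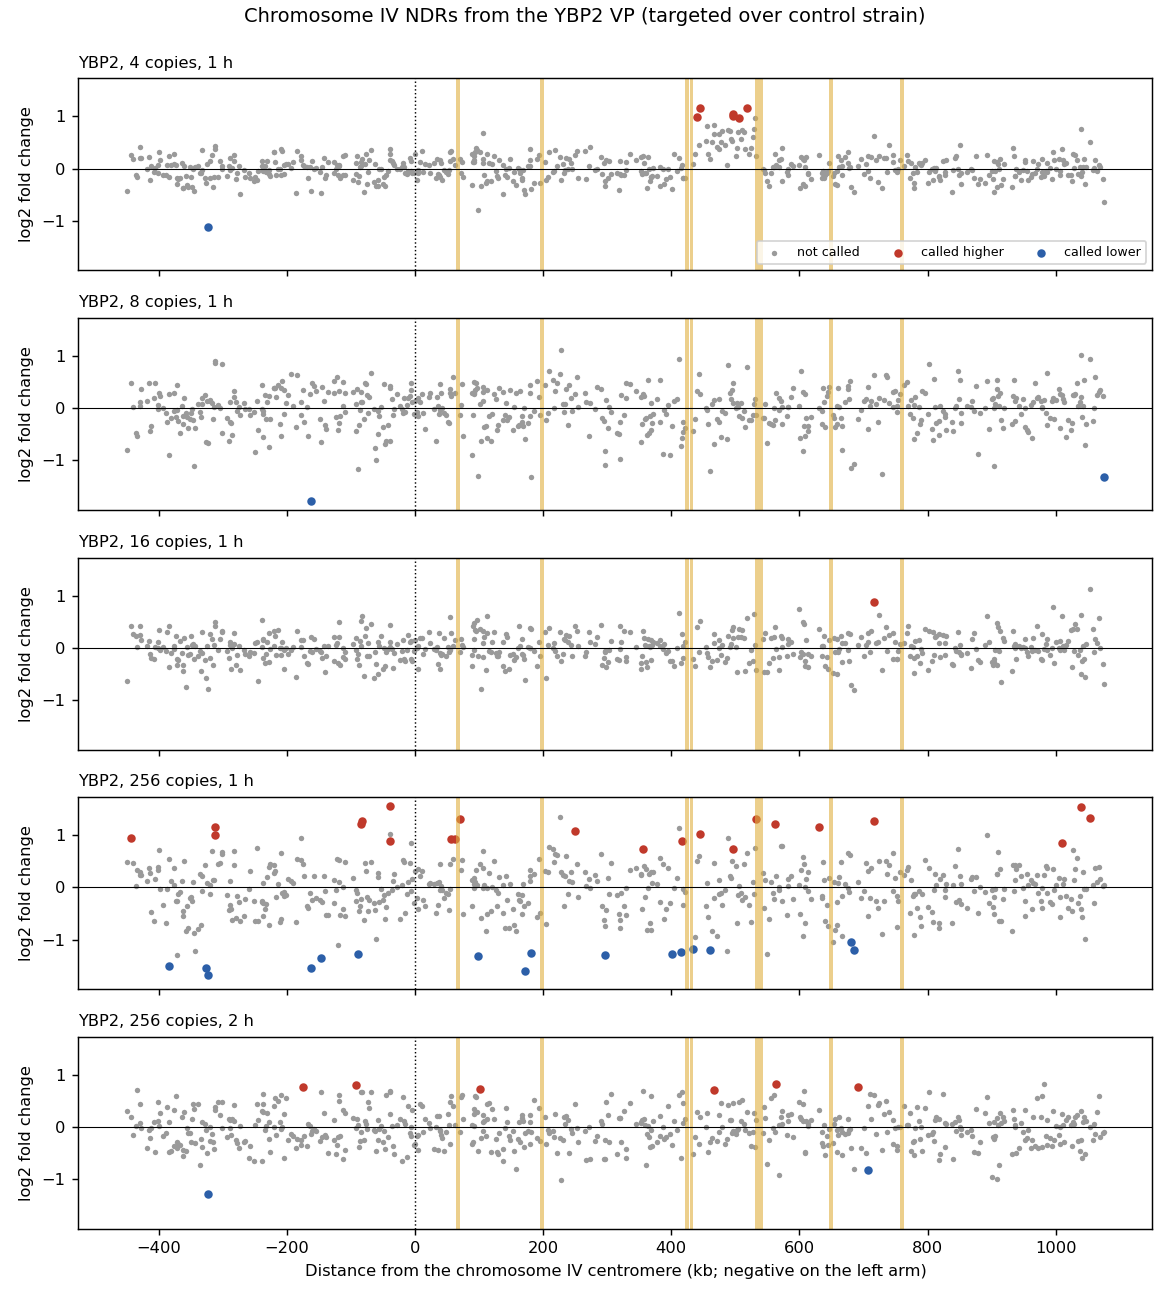
Log2 fold change of the 600 chromosome IV NDRs (y axis) against distance from the centromere in kb (x axis, left arm negative) in the 5 YBP2 tables, from 4, 8, 16 and 256 copies at 1 h to 256 copies at 2 h. Points are NDRs, red where called higher and blue where called lower, and shaded bars are Ty retrotransposons. The 6 red points with 4 copies all lie within one raised stretch about 440 kb into the right arm, and no such stretch is seen in the other panels.

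**Figure D2:**
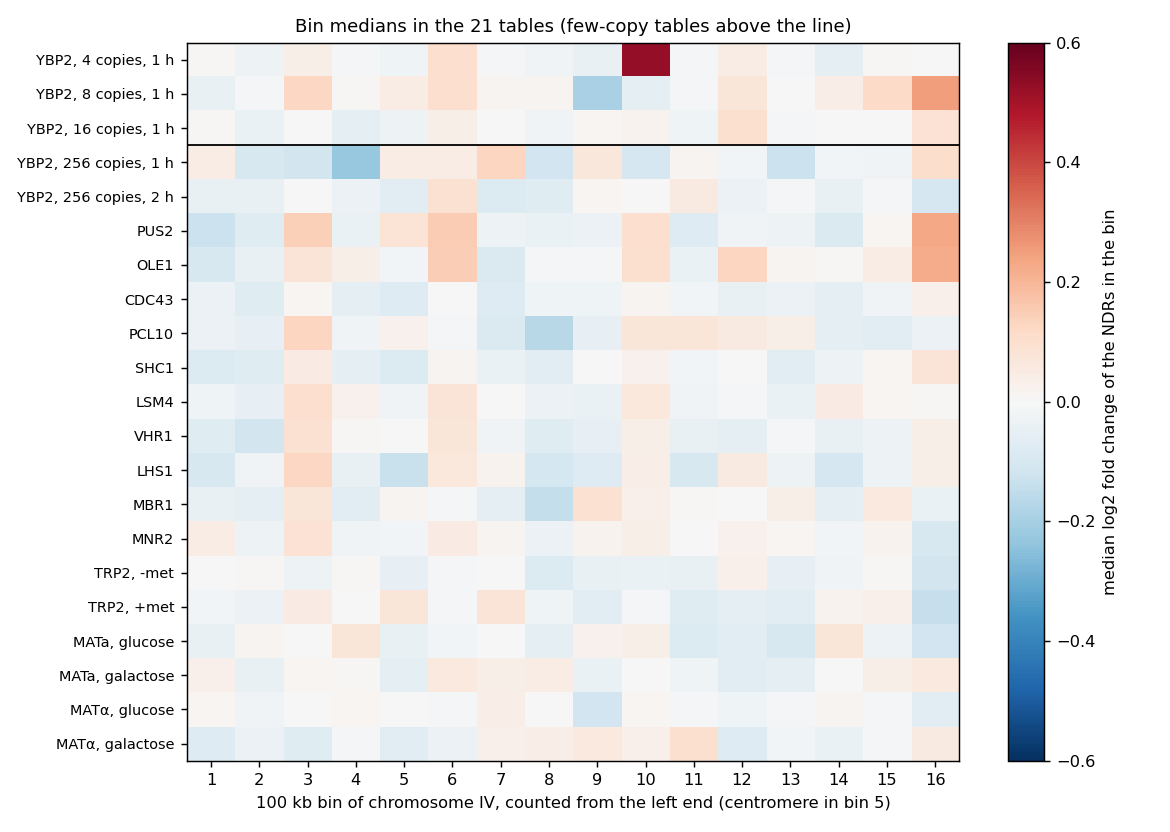
Median log2 fold change (colour) of each 100 kb bin of chromosome IV (x axis, bin number from the left end, with the centromere in bin 5) in each of the 21 tables (y axis, with the tables of 4, 8 and 16 copies above the line). The cell of 0.53 for 900 to 1000 kb with 4 copies stands out, and the same column is near 0 in the other tables.

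The raised stretch was then delimited as the run of at least 10 neighbouring NDRs with the largest sum of log2 fold changes, less the table's median, over their SEs, scaled by the root of the number of NDRs. Since the run was picked by the 4-copy values, its values in that table are a description and carry no test. With 4 copies it held 37 NDRs that start between 889334 and 980860, a span of 91.5 kb about 440 kb from the centromere, and its statistic was 14.1. The largest statistic of either sign on any of the other 14 chromosomes without the VP was 4.22 in that table, and the largest on chromosome IV in the other 20 tables was 7.33, from LSM4. Across all tables and chromosomes without the VP the largest other value was 11.1, from LSM4 on chromosome II. All 37 NDRs of the run lay above 0 with 4 copies, between 0.07 and 1.16 with a median of 0.61, and 20 of them passed an unadjusted p of 0.05 upwards. Of the remaining 563 NDRs of chromosome IV, 47.6% lay above 0, their median was -0.01, and 3 passed that threshold upwards. All 6 higher calls were in the run, and 34 of its 37 NDRs lay above the 90th percentile of the rest of the chromosome.

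The elevation ran along the whole stretch. Medians over its 11 steps of 10 kb lay between 0.41 and 0.99. The first and the last step held 1 NDR each, at 0.99 and 0.98, and these NDRs are the edges picked by the same values. The steps between them held 2 to 5 NDRs each, with medians from 0.41 to 0.80. The deposited log2 fold changes are pulled towards 0 by the DESeq2 prior, most of all where there are few reads, and with the prior taken out the median of the run was 0.97, a ratio of 1.95, against -0.01 for the rest of the chromosome. By base mean that median was 0.79 in the 10 NDRs under 20, 0.99 in the 13 from 20 to 50 and 1.04 in the 14 of 50 and above. In these 14 deeper NDRs the SD of the deposited log2 fold change was 0.27, and the median SE of a single NDR was 0.25, so the spread among neighbours was close to the error of 1 NDR. MeDIP reads depend on the amount of DNA at a locus as well as on its methylation, and no input libraries were used here, so the 2 cannot be told apart.

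Both ends of the run lie next to pairs of retrotransposons. On the left, YDRWTy2-2 and YDRCTy1-2 occupy 871821 to 884220, and the run begins 5.11 kb beyond them. On the right, YDRWTy2-3 and YDRCTy1-3 occupy 981171 to 992642, and the last NDR of the run starts 0.31 kb before them. Between the 2 pairs lie 97.0 kb with 51 genes, 48 of them coding for proteins and 3 for tRNAs, and 3 annotated replication origins. The 8 elements cut chromosome IV into 7 stretches that hold NDRs, and with 4 copies the stretch with the run had a median of 0.57, against -0.03 to 0.04 for the other 6. In the other 20 tables its median lay between -0.10 and 0.10.

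The values at both edges are given as deposited. Left of the run, the NDR between CPP2 and YDR209C (870644), on the far side of the retrotransposons, had a log2 fold change of -0.19 ± 0.23 (SE), the NDR at a tRNA gene and GCD6 (884249), which encodes a subunit of the translation factor eIF2B, had 0.08 ± 0.25, and that at TCP1 (886825), for a chaperonin subunit, had 0.27 ± 0.31. The next NDR, at UPC2 (889334), a transcription factor of sterol synthesis, had 0.99 ± 0.23. Inside it followed the NDR of AHA1 (892448), an activator of Hsp90, with 0.45 ± 0.25, and that of YDR215C and ADR1 (893920), the activator of glucose-repressed genes, with 1.15 ± 0.23. With the prior taken out, the TCP1 NDR outside the run had 0.54 and the AHA1 NDR inside it 0.57, so the left edge is not fixed to 1 NDR. At the right edge, the NDRs of SWM1 (977261), a subunit of the anaphase-promoting complex, of EXG2 (979266), a glucanase of the cell wall, and of a tRNA gene beside the Ty2 element (980860) had 0.61 ± 0.28, 0.75 ± 0.29 and 0.98 ± 0.31. Just beyond, the NDR inside the Ty2 element (981243), whose reads can come from near-identical copies, had 0.24 ± 0.27, and the 2 NDRs at YDR262W past both elements (992718 and 993997), the nearest outside a Ty element, had -0.01 ± 0.28 and -0.02 ± 0.30. Of these 2, the NDR at 992718 overlaps an annotated long terminal repeat, so its reads can also come from other copies.

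**Figure D3:**
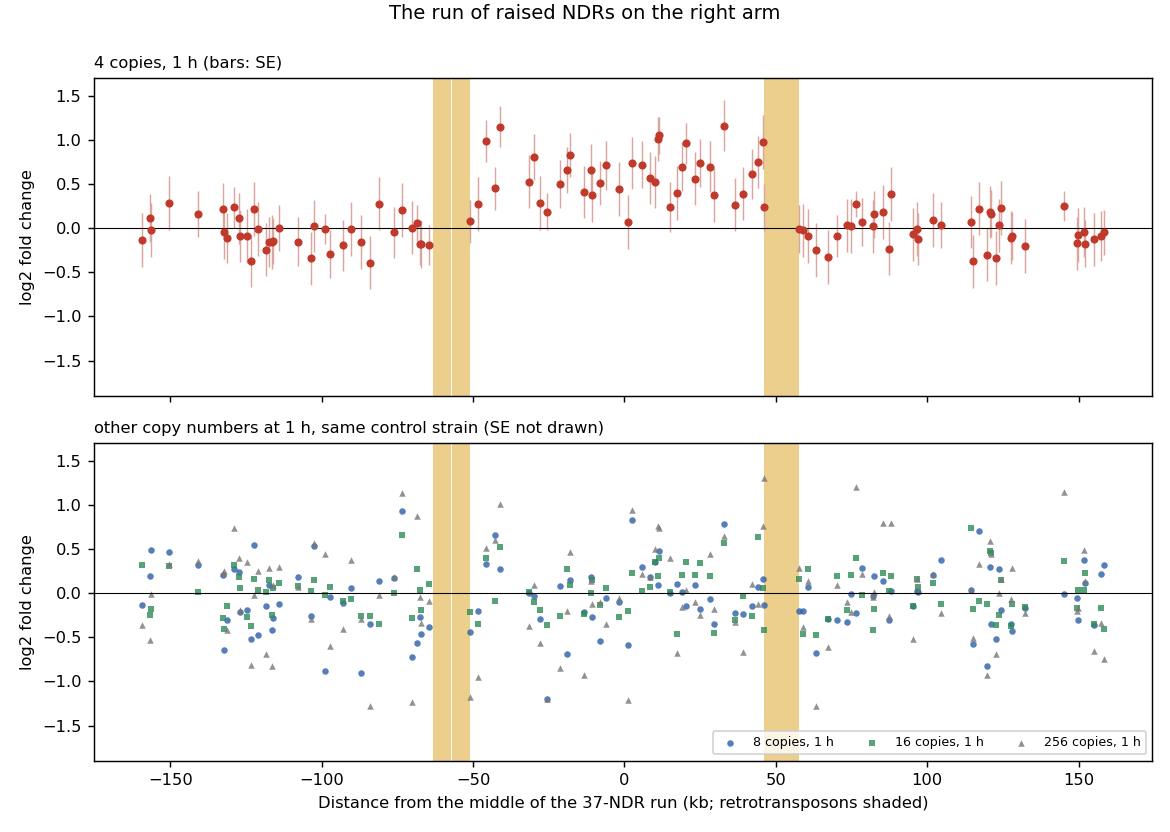
Log2 fold change (y axis) against distance in kb from the middle of the run (x axis) around the raised stretch of the right arm, with 4 copies in the upper panel (points with SE bars) and 8, 16 and 256 copies at 1 h in the lower panel. Shaded bars are Ty retrotransposons. All 37 NDRs between the 2 pairs of elements from UPC2 onwards lie above 0 with 4 copies, and the same NDRs scatter around 0 in the other 3 tables.

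Of the 6 called NDRs, the highest was that of RMD5 (967862), a subunit of the GID ubiquitin ligase, with 1.16 ± 0.29 (adjusted p = 0.0236), and it had 0.79 ± 0.42 with 8 copies, 0.57 ± 0.32 with 16 copies and 0.65 ± 0.39 with 256 copies at 1 h. The NDR of AMD2, a putative amidase, and the tRNA gene SUP2 (946545) had 1.05 ± 0.21 with 4 copies (adjusted p = 0.00102) and 0.48 ± 0.34, 0.40 ± 0.23 and 0.74 ± 0.24 with 8, 16 and 256 copies at 1 h. The neighbouring NDR, to which SUP2 is the nearest gene (946040), had 1.01 ± 0.25, 0.09 ± 0.38, 0.19 ± 0.28 and 0.76 ± 0.29 in the same order. Between 4 and 256 copies at 1 h these 3 NDRs differed by less than the sum of their SEs, and they were above 0 in all 4 tables. The ADR1 NDR (893920) had 0.28 ± 0.37, 0.52 ± 0.26 and 1.02 ± 0.28 with 8, 16 and 256 copies and the UPC2 NDR (889334) 0.34 ± 0.36, 0.40 ± 0.26 and 0.51 ± 0.27. The VHS1 NDR (955441), at the gene of a protein kinase, had 0.96 ± 0.23 with 4 copies but -0.15 ± 0.37, 0.35 ± 0.25 and 0.04 ± 0.29 with 8, 16 and 256 copies. The NDRs of ADR1 and of AMD2 (946545) were also called higher with 256 copies at 1 h, and none of the 6 was called in any of the 17 tables at 2 h.

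The run also held NDRs with small values. The 5 lowest with 4 copies were those of MRPL7 and FMN1 (936338) with 0.07 ± 0.30, YDR222W (909461) with 0.19 ± 0.21, PRP28 and PEX5 (950322) with 0.24 ± 0.29, RKM4 (971464) with 0.27 ± 0.30 and GTB1 and MFB1 (907104) with 0.29 ± 0.31. The products of these genes act in unrelated processes, from the mitochondrial ribosome to splicing. All of them but the YDR222W NDR had base means under 17. The YDR222W NDR had a base mean of 128 and was among the deepest of the run, and with 8 and 256 copies at 1 h it had -1.20 ± 0.36 and -1.20 ± 0.27, of which the 256-copy value was called lower. Its difference between 4 and 256 copies at 1 h was 1.39.

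The same 37 NDRs showed no shift of that size in any other table. Their median was 0.0026 with 8 copies, with 19 of 37 above 0, 0.06 with 16 copies (23 above 0) and -0.05 with 256 copies at 1 h (18 above 0). At 2 h the medians ran from -0.06 to 0.13 over the 17 tables, with 16 to 24 of 37 above 0. Of the 37, 2 were called higher and 1 lower with 256 copies at 1 h, where 4.54% and 3.21% of all NDRs were, and at 2 h at most 3 were called higher in a table, from SHC1 (4.31% of all) and from LSM4 (4.23%). The 4 tables at 1 h share their control libraries.

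The differences between YBP2 tables were tested at each NDR, by a two-sided normal test of the difference in log2 fold change, with the squared SEs of both tables added and Benjamini-Hochberg adjustment over all 4828 NDRs. Between 4 copies and 256 copies at 1 h, 1 chromosome IV NDR was higher (0.0621% of all) and 3 were lower (1.12%), and between 4 copies and 256 copies at 2 h there were 0 higher (0%) and 0 lower (0.249%), with 11 higher and 17 lower at an unadjusted p under 0.05. For 8 copies there were 0 higher (0%) and 2 lower (0.414%) against 1 h and 1 higher (0.0207%) and 1 lower (0.456%) against 2 h. For 16 copies there were 3 higher (0.352%) and 4 lower (1.2%) against 1 h, and 0 (0%) and 0 (0.269%) against 2 h, where 3 and 6 passed the unadjusted threshold. Between 4 copies and 8 or 16 copies no NDR of any chromosome passed in either direction (0%). At the unadjusted threshold 12 chromosome IV NDRs were higher and 1 lower with 4 than with 8 copies, and 6 higher and 2 lower with 4 than with 16 copies. The unadjusted differences were not counted over all NDRs, so a share to set beside them is missing. Over the 37 NDRs of the run, chosen by the 4-copy values, the median difference was 0.55 from 256 copies at 1 h, 0.54 from 256 copies at 2 h, 0.65 from 8 copies and 0.59 from 16 copies, with 34, 36, 35 and 37 of 37 above 0. Single NDRs of the run were thus rarely separable between tables, with the YDR222W NDR as the 1 case that passed. That NDR was among the lowest of the run with 4 copies, at 0.19 ± 0.21, and was called lower with 256 copies at 1 h, at -1.20 ± 0.27. The 4 tables share 1 control, and taking the errors of the 1 h tables as correlated at 0.5 on that account raised the higher differences from 256 copies at 1 h to 15, 5 of them in the run, and the lower ones to 15, where 1.53% and 3.11% of all NDRs passed.

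The other calls of the few-copy tables lay elsewhere on the chromosome. The NDR of VMA1 (126456), which encodes the catalytic subunit of the vacuolar proton pump, fell with 4 copies to -1.12 ± 0.26 (adjusted p = 0.0139). It had -0.67 ± 0.39 with 8, -0.78 ± 0.26 with 16 and -1.67 ± 0.31 with 256 copies at 1 h and -1.29 ± 0.28 at 2 h. In the 11 tables at 2 h with the common control it ranged from -1.29 to -0.28 (median -0.88) and in the 6 tables with other controls from -0.49 to 0.46 (median -0.06). It was called lower in 8 of the 18 tables with 256 copies, all of which are among those of the 2 common controls.

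With 8 copies, the NDR between RPN6, a proteasome subunit, and PMT1, a protein mannosyltransferase (286744), fell to -1.78 ± 0.35 (adjusted p = 0.000372). It had -0.43 ± 0.21 with 4, 0.20 ± 0.21 with 16 and -1.54 ± 0.26 with 256 copies at 1 h, so that the 8-copy and 256-copy values differed by less than the sum of their SEs and the values did not follow copy number. The NDR of YRF1-1 (1524598), a helicase gene of the subtelomeric Y′ elements whose copies share reads, had -0.65 ± 0.21 with 4, -1.31 ± 0.33 with 8 (adjusted p = 0.0234), -0.69 ± 0.21 with 16 and 0.04 ± 0.23 with 256 copies at 1 h. It was also called lower from SHC1 and called higher in MATa cells in glucose, and near-identical copies make its value uncertain.

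With 16 copies, the NDR nearest to HXT3 (1166462), a low-affinity glucose transporter, was the single higher call and lay in the leading run of that table, at 0.87 ± 0.22 (adjusted p = 0.0242). Its log2 fold change was 0.62 ± 0.22 at 4, 0.64 ± 0.33 at 8, 0.87 ± 0.22 at 16 and 1.28 ± 0.23 at 256 copies. The 256-copy value was called as well, and no difference of this NDR between 4, 8 or 16 copies and 256 copies passed the adjusted threshold. At 2 h it had 0.62 ± 0.18 from YBP2 and 0.17 to 0.70 (median 0.50) over the 11 tables with the common control, and -0.39 to 0.16 (median -0.02) over the other 6.

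With 256 copies at 1 h, the 3 strongest NDRs of chromosome IV were those of GPD1, the glycerol-3-phosphate dehydrogenase of the osmotic response, next to a tRNA gene (411167), of API2 (1489812) and of YDR274C and TLD1 (1011434). The GPD1 NDR had 1.56 ± 0.19 with 256 copies (adjusted p = 4e-14), but 0.16 ± 0.18, -0.62 ± 0.31 and 0.12 ± 0.17 with 4, 8 and 16 copies. The TLD1 NDR had 1.21 ± 0.18 with 256 copies and 0.27 ± 0.15, -0.23 ± 0.30 and 0.40 ± 0.15 with 4, 8 and 16, and -0.10 ± 0.16 with 256 copies at 2 h. The API2 NDR, by contrast, had 1.54 ± 0.24 with 256 copies and values well above 0 in the few-copy tables too, 0.77 ± 0.22, 1.02 ± 0.34 and 0.62 ± 0.24, none of them called. The differences of the GPD1 and TLD1 NDRs between 4, 8 or 16 copies and 256 copies at 1 h all passed the adjusted threshold, with the few-copy value lower.

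Over the 17 tables at 2 h, 42 chromosome IV NDRs were called higher in at least 1 table and 18 lower in at least 1, with 2 NDRs in both sets, for 84 higher and 38 lower calls in all. These are 7% and 3% of the chromosome, and over all 4828 NDRs, those near a VP included, 10.1% and 3.04% were called in at least 1 of these tables. Over all NDRs, the log2 fold change rose with base mean in most of these tables. With that trend removed, chromosome IV had 8 higher calls in place of 84 and 53 lower calls in place of 38. Calls over all NDRs were not counted with the trend removed, so these counts cannot show whether the change is particular to chromosome IV. Of the 42 NDRs, 39 were among the 180 with the highest base means (59.6 and above), and their median number of GC sites was 11, against 6 in the 542 NDRs that were not called. The 18 NDRs called lower had a median of 7 GC sites. The part of depth and GC content in these calls was not tested. On the left arm 13 of 190 NDRs (6.84%) were called higher and on the right arm 29 of 410 (7.07%), nearly the same share. Lower calls fell on 4 of 190 (2.11%) and 14 of 410 (3.41%). Per bin, the higher calls ranged from 0 between 600 and 700 kb to 11 between 1000 and 1100 kb, and the last, short bin had 7 calls on 3 of its 9 NDRs.

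The NDR called higher most often was that of IRC4 (1517770), close to the right end and named for a role in recombination, in 5 of the 18 tables with 256 copies: PUS2, CDC43, SHC1, LSM4 and LHS1. Its log2 fold changes ranged from 0.31 to 1.20 (median 0.72) over the 11 tables with the common control at 2 h and from -0.46 to 0.25 (median -0.27) over the 6 with other controls, and it had 0.06 ± 0.29, 0.30 ± 0.41 and 0.56 ± 0.29 with 4, 8 and 16 copies. Next came 3 NDRs in 4 tables each: that of HEM12 of heme synthesis and BAP3, a permease of branched-chain amino acids (551145), with 0.37 to 0.96 (median 0.73), that of HNT1, a hydrolase (239918) with 0.47 to 0.91 (median 0.71), and that of PSA1, which makes GDP-mannose (356939), with 0.16 to 0.84 (median 0.62). In the 6 tables with other controls their medians were 0.06, -0.06 and 0.11. A further 11 were called in 3 tables each, of which the 6 with the highest mean log2 fold change over the 18 tables are described. They lie at PAC11 and SLD5 (1430823), the noncoding transcript SUT053 (506117), PMP3 (1013682), SUR2 and MHR1 (1056148), SOK1 and TRP1 (461375) and HSP42 (806291), and their medians over the 11 tables ran from 0.48 at HSP42 to 0.82 at PAC11. The same control libraries enter all values of the 11 tables, and in the 6 other tables the medians of the 10 NDRs lay between -0.27 and 0.11.

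In the few-copy tables these 10 NDRs were not called, and their values were between -0.53, at HNT1 with 8 copies, and 0.56, at IRC4 with 16 copies. The HSP42 NDR, at the gene of a small heat shock protein, had 0.24 ± 0.23, 0.28 ± 0.34, 0.32 ± 0.23 and 0.74 ± 0.24 with 4, 8, 16 and 256 copies at 1 h and 0.68 ± 0.19 at 2 h. The BAP3 NDR had 0.31 ± 0.23, 0.09 ± 0.34, 0.36 ± 0.23 and 0.45 ± 0.26 with 4, 8, 16 and 256 copies at 1 h and 0.73 ± 0.19 at 2 h, where it was called higher.

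Called lower most often, beside VMA1, was the NDR of HXT7 (1156193), a high-affinity hexose transporter with a near-identical neighbour, HXT6, so that its reads are uncertain. It was lower in 7 tables at 2 h and ranged from -0.93 to -0.59 (median -0.73) over the 11 tables with the common control and from -0.35 to 0.32 (median 0.02) over the 6 others, and with 4, 8 and 16 copies it had -0.05 ± 0.27, -0.41 ± 0.39 and 0.11 ± 0.27. The ALT2 NDR (677966) was lower in PCL10, LSM4 and LHS1, with a range of -1.41 to 0.06 (median -0.80), but it had 1.11 ± 0.40 with 8 copies. An NDR at 2 tRNA genes (568736) was lower in SHC1, LSM4 and VHR1, with -0.97 to -0.32 (median -0.49). Of 6 NDRs lower in 2 tables, that of UTP6 (1357432) had the lowest mean. The UTP6 NDR, at a gene of ribosomal RNA processing and with 1 GC site, was lower in LHS1 and MBR1, with -1.30 to -0.37 (median -0.71), and in the 6 other tables it ranged from -0.74 to 0.20 (median -0.14).

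**Figure D4:**
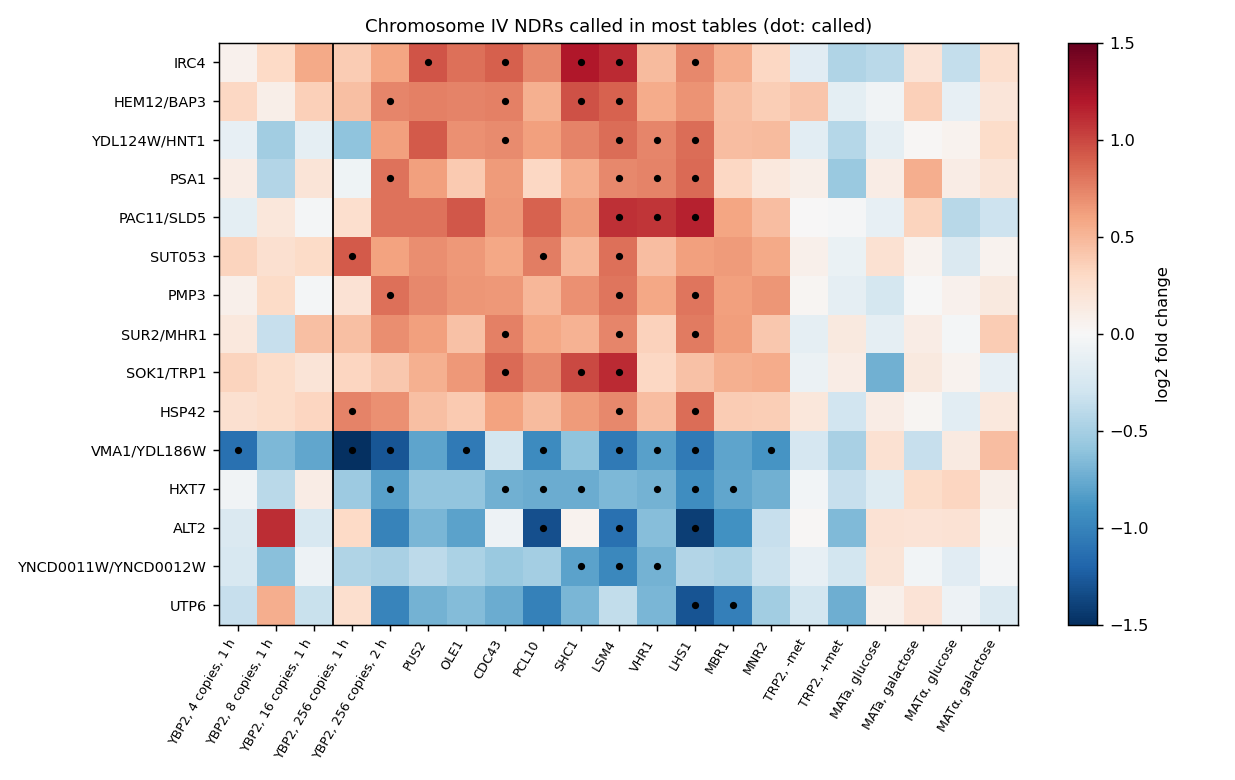
Log2 fold change (colour) of the 10 chromosome IV NDRs called higher and the 5 called lower most often among the 18 tables with 256 copies, with ties in that number settled by the mean log2 fold change, (one axis) in all 21 tables (the other axis). A dot marks a call. The 10 NDRs are above 0 and most of the 5 below 0 across the 11 tables at 2 h that share a control, and most of both sets lie nearer to 0 in the TRP2 and MAT tables.

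A few more NDRs were among the 3 strongest of a table. That of UME6 (866708), a regulator of meiotic genes, was called higher with 256 copies at 1 h at 0.88 ± 0.21, and it had 0.66 ± 0.17 at 2 h. That of CCC2 (1005339), a copper transporter, was called higher from CDC43, SHC1 and LSM4 at 0.83 ± 0.18, 0.92 ± 0.17 and 0.93 ± 0.17, and called lower from TRP2 with methionine at -0.74 ± 0.19, a table with another control. That of MSN5 (1140595), a nuclear transport receptor, was called higher from YBP2 at 2 h, SHC1 and LHS1 at 0.77 ± 0.22, 0.81 ± 0.20 and 0.93 ± 0.21. The NDRs of DOT1 (1342231), a histone H3 methyltransferase, and of PAM1 (960100), inside the 4-copy run, were each called higher from SHC1 and LSM4. The PAM1 NDR had 1.03 ± 0.21 and 0.77 ± 0.21 there, close to its 0.74 ± 0.27 with 4 copies, which was not called.

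Gene groups along the chromosome mostly had few calls, and their counts stand beside the 7% of all chromosome IV NDRs called higher and the 3% called lower in at least 1 table at 2 h. Both histone NDRs lie in the 4-copy run, that of HTB1 (913784) with 0.50 ± 0.27 and that of ADK1 and HTA1 (916230) with 0.66 ± 0.26 in that table, against a median of 0.0033 over the chromosome. At 2 h the HTA1 NDR was called higher in 2 tables and the HTB1 NDR lower in 2, of which LSM4 had both. Of 2 heat shock NDRs, that of HSP42 was called higher in 2 tables at 2 h and that of HSP78 in the run in none. Of 3 NDRs at amino acid transport genes, that of BAP3 was called in 4. Of 3 at hexose transporters, that of HXT7 was called lower in 7, and the NDR nearest to HXT3 (1166462), more than 1 kb from the start of that gene, is not among the 3. Of 4 at sulfur amino acid genes (MET32, SAM2, HOM2), 1 was called higher, between RPA14 and CPR1 (769087), from CDC43. The 4 NDRs at the glycolytic genes TPI1 and GPM2 and the 2 at the sodium pumps ENA1, ENA2 and ENA5 had 0 calls in any of the 18 tables with 256 copies. Of 32 NDRs at ribosomal protein genes, 0 were called higher and 1 lower, that of RPS13 and AIM7 (579114) from CDC43.

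The same shares, 7% and 3%, apply to the counts at 2 h by feature and position. At 1 h, the shares of chromosome IV were 3.67% higher and 2.67% lower with 256 copies, and 1% higher with 4 copies. Of 36 NDRs within 1 kb of a tRNA gene, 2 were called higher and 5 lower in at least 1 table at 2 h, with 5 higher and 1 lower with 256 copies at 1 h and 2 higher with 4 copies, both at SUP2 in the run. Of 11 NDRs in or at retrotransposons, 0 were called higher and 2 lower at 2 h, while 2 were called higher and 1 lower with 256 copies at 1 h. The 2 higher ones lie inside Ty elements and share reads with near-identical copies, and the lower one, at GCD6 (884249), starts just outside an element. By position, 1 of 24 NDRs within 30 kb of the centromere, that of SOK1 and TRP1, was called higher at 2 h, 0 were lower, and their medians were -0.01, 0.12, -0.01 and 0.06 with 4, 8, 16 and 256 copies at 1 h and -0.02 with 256 copies at 2 h. Of 17 within 30 kb of an end, 5 were called higher and 1 lower at 2 h. Among these were the subtelomeric NDRs of COS7 (478) and YRF1-1, called higher in MATa cells in glucose at 1.03 ± 0.28 and 0.96 ± 0.23, both in families of near-identical copies.

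Weaker runs of neighbouring NDRs were found in other tables and are likewise descriptions. The leading run from PCL10 lay inside the 4-copy run, 10 NDRs from 946545 to 967862 with a median of 0.28 and a statistic of 4.14, 8 of them above 0. The 10 NDRs from 1157293 to 1184462, next to the HXT genes, were the leading run from CDC43, LHS1 and MBR1, with medians of 0.25, 0.53 and 0.32, and those 3 tables share their control. In MATa cells in glucose, a table with another control, the leading run lay at the same place and was negative. It held 11 NDRs from 1156193 to 1184462 with a median of -0.23, 0 of them above 0, and a statistic of -2.46. A run of 48 NDRs from 458230 to 565712, beginning beside the centromere, led with PUS2 (median 0.24) and OLE1 (0.16). With 256 copies at 1 h the leading run was 130510 to 149036, 10 NDRs around PCL9 (named after its values were seen), with a median of 0.56 and a statistic of 5.90. With 8 copies it was negative, 69 NDRs from 741807 to 936338 with a median of -0.19, which takes in the left part of the 4-copy run, and with 16 copies 14 NDRs from 1156193 to 1195167 had a median of 0.21. All 10 NDRs of the PCL9 run lay above 0, and the 8-copy run had 25 of 69 above 0.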

How the data were processed

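MeDIP-seq libraries of 21 targeted conditions and their controls, 2 per condition, were used as 21 tables of 4828 NDRs. The authors trimmed reads with fastp 0.23.2, aligned them to sacCer3 with BWA 0.7.17, removed duplicates with Picard, counted reads per NDR with featureCounts 2.0.3 and compared each targeted strain with its control in DESeq2 1.38.0, without filtering of outliers. The deposited base mean is a signal value, the mean of the authors' size-factor normalized reads over the libraries of a table. The deposited log2 fold change and its SE come from the same fit by the authors and are drawn towards 0 by a normal prior. Every fold change and SE printed is therefore the authors', and per-library values and depths were not analysed here. The authors' Wald statistics, p-values and adjusted p-values were not used.

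P-values were recomputed as two-sided normal tests of log2 fold change over SE, adjusted by the Benjamini-Hochberg method over all NDRs of a table (4823 to 4828, since 5 NDRs without an SE were dropped, none of them on chromosome IV). A call needed an adjusted p under 0.05 and an absolute log2 fold change above 0.7. P-values rest on the SE of the authors' fit, which the prior also reduces, and are not a direct measure of the spread between libraries at an NDR. The 2 libraries of a condition carry 1 strain name in the labels, and the study describes them as biologically independent. Bins of 100 kb and runs of at least 10 NDRs were described without a test. The removal of the trend over base mean used a running median over 201 NDRs. NDRs were named by their start, read as 1-based, and by genes starting within 1 kb in the R64 annotation, the assembly that sacCer3 holds.

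NDRs named with values were those called with 4, 8 or 16 copies (up to 10 per table and direction), the 5 highest, the 5 lowest and 3 on each side of each edge of the 4-copy run, the 10 called higher and the 5 called lower most often in the other 18 tables, the 3 with the largest Wald statistics in each other table with a call, and up to 3 called members of each gene group. Members and lists were chosen with earlier results of these data known. Alternatives were other cutoffs, Bonferroni adjustment, a base mean of at least 20, shifted bins, weighted means, removal of the trend over base mean and of the prior, and correlated errors for a shared control. Scripts were tested on simulated data. Python 3.11.15 was used with matplotlib 3.10.9, statsmodels 0.14.6, scipy 1.17.1, numpy 2.4.6 and pandas 2.3.3.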

Additional observations from a re-analysis of the deposited data

Results flagged for a closer look

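Differences between YBP2 tables that passed the adjusted threshold of the two-sided normal test are given here, as log2 fold changes of the table with few copies against that with 256 copies. They were set apart because the same VP gave different values at the same NDR, in 15 cases over 10 NDRs. The GPD1 NDR (411167) was lower with few copies in each table at 1 h. It had 0.16 against 1.56, a difference of -1.40 ± 0.26 (SE, adjusted p = 3.93e-05) with 4 copies, -0.62 against 1.56, a difference of -2.18 ± 0.37 (SE, adjusted p = 5.97e-06) with 8 copies and 0.12 against 1.56, a difference of -1.44 ± 0.25 (SE, adjusted p = 9.46e-06) with 16 copies. The TLD1 NDR (1011434) was also lower with few copies in each table, with 0.27 against 1.21, a difference of -0.93 ± 0.23 (SE, adjusted p = 0.00788) for 4 copies, -0.23 against 1.21, a difference of -1.43 ± 0.35 (SE, adjusted p = 0.0135) for 8 copies and 0.40 against 1.21, a difference of -0.81 ± 0.23 (SE, adjusted p = 0.0363) for 16 copies. Both NDRs are among the strongest of chromosome IV with 256 copies at 1 h, and neither value was that high at 2 h.

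The YDR222W NDR (909461), inside the run chosen by its 4-copy values, had 0.19 against -1.20, a difference of 1.39 ± 0.34 (SE, adjusted p = 0.00731) with 4 copies and is a description. The NDR of GIC2 (1080340), an effector of the GTPase Cdc42, was named after its values were seen, and it had 0.25 against 1.15, a difference of -0.90 ± 0.26 (SE, adjusted p = 0.0413) with 4 copies. The NDR between RPN6 and PMT1 (286744) went opposite ways. It had 0.20 against -1.54, a difference of 1.73 ± 0.33 (SE, adjusted p = 6.98e-05) with 16 copies at 1 h, but -1.78 against -0.14, a difference of -1.64 ± 0.41 (SE, adjusted p = 0.022) with 8 copies relative to 2 h. The ALT2 NDR (677966) had 1.11 against -1.01, a difference of 2.12 ± 0.53 (SE, adjusted p = 0.0221) with 8 copies relative to 2 h, which are tables with different controls.

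With 16 copies at 1 h, 4 further NDRs differed from 256 copies. The 2 in retrotransposons share reads with other copies. That at YDR034C-D (519321) had -0.08 against 1.30, a difference of -1.39 ± 0.38 (SE, adjusted p = 0.022), and that at YDR261W-B (981243), next to the right edge of the 4-copy run, had -0.42 against 1.31, a difference of -1.73 ± 0.41 (SE, adjusted p = 0.00424). The other 2 were named after their values were seen. The NDR between DNF2, a lipid flippase, and UBC13, a ubiquitin-conjugating enzyme (630739), had 0.36 against -1.25, a difference of 1.61 ± 0.36 (SE, adjusted p = 0.00138), and that at YDL085C-A and YDL086W (302233) had -0.08 against -1.35, a difference of 1.27 ± 0.33 (SE, adjusted p = 0.0174). The cause of these differences was not tested.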

How the results depend on the processing

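No paired analysis was possible because the tables hold 1 fold change per comparison and no value of a single library, and for the same reason no replicate could be left out. The call counts of chromosome IV depended on the thresholds. With an adjusted p under 0.01 the 6 higher calls with 4 copies became 2 and the 1 lower call 0, the 2 lower with 8 copies became 1, the 1 higher with 16 copies 0, the 16 lower with 256 copies at 1 h 10, and the sums over the 17 tables at 2 h 53 higher and 14 lower in place of 84 and 38. With Bonferroni adjustment these numbers were 2 and 0 with 4 copies, 1 with 8, 0 with 16, 11 higher and 6 lower with 256 copies at 1 h, and 23 higher and 2 lower at 2 h. With a log2 fold change cutoff of 1, the 16-copy call was lost (0), 14 of the higher calls were made with 256 copies at 1 h, and 8 higher and 15 lower at 2 h. With a base mean of at least 20, 5 were called lower with 8 copies. With the trend over base mean removed, there were 0 higher and 2 lower with 16 copies, 6 higher with 256 copies at 1 h and 8 higher at 2 h. Calls over all NDRs were not counted under these alternative settings.

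The 4-copy bin at 900 to 1000 kb kept its direction. Its median of 0.53 became 0.17 when the bin was moved by 50 kb towards the right end, past the edge of the run, and 0.88 with the normal prior taken out, an alternative added after seeing the data. The run had a median of 0.97 with the prior taken out. A base mean of at least 20 left 27 of its NDRs with a median of 0.70.

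For the differences, removing the trend over base mean gave 2 higher and 0 lower between 4 copies and 256 copies at 1 h, 1 higher between 4 copies and 256 copies at 2 h, 0 lower for 8 copies against 1 h, 0 higher and 0 lower for 8 copies against 2 h, and 1 lower for 16 copies against 1 h. A base mean of at least 20 in both tables gave 3 higher and 5 lower for 4 copies against 1 h, 1 lower for 4 copies against 2 h, 5 lower for 8 copies against 1 h and 3 lower for 8 copies against 2 h. A correlation of 0.5 for the shared control gave 15 higher and 15 lower for 4 copies, 10 lower for 8 copies and 11 higher and 9 lower for 16 copies, each against 256 copies at 1 h, and 2 higher between 4 and 8 copies. Over all NDRs, the shares that passed were 1.53%, 3.11%, 2.36%, 1.93%, 2.53% and 0.228% in the same order. With the trend removed or the base mean limit, differences over all NDRs were not counted. The cause of these changes was not tested. A median base mean of about 18 in the few-copy tables limits what single NDRs can show.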
